A study of Mus musculus with 23 samples.

Results

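The ribosomal RNA contig of these data, named chrRibo in the deposited files, was divided into fixed windows of 50 nt on each strand, and each distinct alignment (its start, end and strand, counted once per library) was placed in a window by its midpoint. The last covered position was 44900, which gave 898 windows per strand and 1796 in all. Of these, 227 held at least 1 alignment, among 235250 windows covered over all contigs. They held 5362 of the 366484 distinct alignments in 10 CLIP-seq libraries (crosslinking and immunoprecipitation followed by sequencing). All positions are 1-based on chrRibo. The labels give neither its sequence nor its annotation, so no window was assigned to a particular ribosomal RNA, and no sequence is shown.

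The libraries came from v6.5 mouse embryonic stem cells of no stated modification, cultured with LIF on feeder fibroblasts that were removed by pre-plating. Cells were irradiated on ice with 254 nm ultraviolet light at 400 mJ/cm2, and RNA fragments were recovered with an anti-Upf1 antibody raised in rabbit or with IgG as a control. Untreated cells gave 3 libraries per antibody (A1, A2 and I), and cells given 100 µg/ml cycloheximide, an inhibitor of translation elongation, for 2 hours gave 2 (A1 and A2). Whether a group's libraries stem from different cultures is not stated, so the p-values reflect spread between libraries, which may be technical. The embryonic stem cell label was not checked against marker genes here.

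Ribosomal RNA genes lie in tandem repeats, each with a transcribed part and an intergenic spacer. RNA polymerase I transcribes a long precursor, from which the small-subunit RNA, the large-subunit RNA and a short RNA that pairs with the latter are cut, while external and internal spacers are degraded. Upf1 is an ATP-dependent RNA helicase needed for nonsense-mediated mRNA decay, and it meets ribosomes when translation ends. Ribosomal RNA is the most abundant RNA of most cells and a usual background of immunoprecipitated RNA, so the IgG libraries carry the reference level for every value here.

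Some libraries stood apart before any comparison. Distinct alignments per library numbered 7215 to 97651, and those on chrRibo numbered 135 to 1386. The longest reads were 34 nt in untreated A1 and I of Upf1 and untreated I of IgG. They were 38 nt in all the rest, cycloheximide libraries included. The 34 nt libraries also had the most distinct chrRibo alignments (1121, 631 and 1386 in that order), against 135 to 589 in the rest. Depth on chrRibo thus moves with read length in all that follows. A molecule was taken as an alignment with its 2 random adapter letters. In IgG untreated A2 and the IgG cycloheximide libraries, 81.5% to 85.4% of molecules outside chrRibo were also found in another library. That share was 27.7% to 35.6% in Upf1 untreated A2 and the Upf1 cycloheximide libraries, and 0.478% to 6.63% in the others. On chrRibo it was 68.6% to 89.6% in the first 6 of these libraries and 13.8% to 21.9% in the last 4. The sharing crossed the groups compared below. On chrRibo, IgG untreated A2 and IgG cycloheximide A2 had 394 molecules in common, and Upf1 untreated A2 and IgG untreated A2 had 301. The fits treated the libraries as independent, so their SE and p-values do not account for this. The part of shared molecules in the results below was not tested, and values without them are given where they differ.

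chrRibo took a smaller share of the distinct alignments in every Upf1 library than in any IgG library. Upf1 libraries of untreated cells had shares of 1.15% (A1), 1.46% (A2) and 0.707% (I), and those of treated cells 0.912% (A1) and 0.798% (A2). IgG libraries of untreated cells had 5.72% (A1), 3.19% (A2) and 2.91% (I), and those of treated cells 1.87% (A1) and 1.90% (A2). The mean was 1.00% ± 0.302 (SD, n = 5) for Upf1 and 3.12% ± 1.57 (SD, n = 5) for IgG. The antibodies did not overlap, and the lowest IgG library lay above the highest Upf1 library.

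The nearest libraries of the antibodies were Upf1 untreated A2, with a 95% Wilson interval of 1.302% to 1.63%, and IgG cycloheximide A1, with 1.58% to 2.21%. These intervals, which cover counting error only, overlapped. Within the libraries with 38 nt reads, the share was 0.798% to 1.46% in 3 Upf1 libraries and 1.87% to 5.72% in 4 IgG libraries. Within those with 34 nt reads, it was 0.707% and 1.15% in Upf1 and 2.91% in the lone IgG library. Without the molecules found in more than 1 library, it ranged from 0.426% to 0.922% in Upf1 and from 1.76% to 4.28% in IgG.

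Cycloheximide libraries of IgG had lower chrRibo shares than untreated ones, 1.89% ± 0.0222 (SD, n = 2) against 3.94% ± 1.55 (SD, n = 3), and the groups did not overlap. Without IgG untreated A1, the difference went from -2.05 to -1.16 percentage points. Without the molecules found in more than 1 library, IgG cycloheximide had 1.76% (A1) and 2.94% (A2) and IgG untreated 4.28%, 3.20% and 2.50% (A1, A2 and I), so the groups overlapped and the difference was -0.98 percentage points. In Upf1 the treated libraries had 0.855% ± 0.0809 (SD, n = 2) and the untreated ones 1.10% ± 0.377 (SD, n = 3), and the groups overlapped, since untreated I was the lowest Upf1 library. Without the shared molecules the shares were 0.508% and 0.426% in the treated and 0.922%, 0.685% and 0.567% in the untreated Upf1 libraries, without overlap, and the difference was -0.26 in place of -0.25 percentage points. Read length moves with treatment in both antibodies, because the 34 nt libraries were all untreated.

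**Figure D1:**
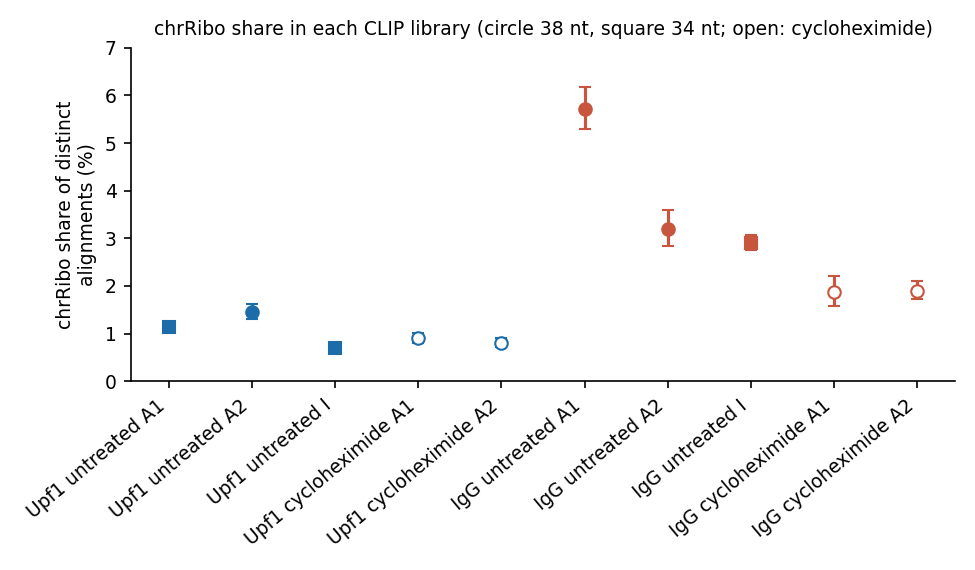
Share of distinct alignments on chrRibo (vertical axis, %) in each of the 10 CLIP libraries, with 95% Wilson intervals, Upf1 in blue and IgG in red, circles for 38 nt and squares for 34 nt reads, open symbols for cycloheximide. The Upf1 libraries sit between 0.707% and 1.46% and the IgG libraries between 1.87% and 5.72%.

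The contrast was far larger when every line of the files was counted, because chrRibo alignments were repeated in the IgG files. Counting lines, chrRibo made up 1.26% to 2.48% of Upf1 libraries, 30.6% of IgG untreated A1, 22.4% of IgG untreated I and 4.91% to 8.03% of the other IgG libraries. A chrRibo alignment of IgG untreated A1 was listed on 118 lines on average, against 16.2 for alignments elsewhere in that library, and in IgG untreated I on 24.1 against 2.50. In the other 8 libraries the average on chrRibo was 2.19 to 3.88 lines.

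The most repeated alignment of each Upf1 library was listed on 16 to 18 lines, and 16 is the number of pairs the 2 adapter letters can form. In the IgG libraries it was listed on 54 to 4316 lines. The files of the antibodies may differ in how far repeated copies were removed, which was not tested. Shares by line are therefore not like for like between the antibodies. Positions 9083 to 9120 alone were listed 4316 times in IgG untreated A1, and positions 10771 to 10804 were listed 1293 times in IgG untreated I. In IgG cycloheximide A1, positions 5725 to 5762 were listed 273 times and made up 52.1% of that library's chrRibo lines. Elsewhere than on chrRibo, IgG untreated A2 and the IgG cycloheximide libraries had 1.18 to 1.26 lines per alignment and the Upf1 libraries 1.299 to 1.79. All further values count each distinct alignment once. Even so, 38 chrRibo alignments carried all 16 letter pairs in their library, against 1 alignment elsewhere.

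Alignments lay almost wholly on the plus strand of the first 14000 positions, with 5286 of 5362 (98.6%) there. The share ranged from 95.9% in Upf1 cycloheximide A1 to 100% in IgG untreated A2. The minus strand held 39 alignments, between 0 and 10 in a library, of which 14 lay in the last 3000 covered positions. The plus strand beyond position 14000 held 37 alignments, at most 11 in a library. The orientation and the boundary were shared by all 10 libraries.

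Inside the first 14000 positions, 175 of 280 plus-strand windows were covered and 105 were empty in every library. By base, 56.3% of these positions were covered. The longest stretch with no alignment in any library ran from position 4359 to 5074 (716 nt), and 9 stretches of 200 nt or more took up 3222 nt together. Others ran from 13506 to 13923 (418 nt), from 12414 to 12806 (393 nt) and from 12023 to 12357 (335 nt). Shorter ones ran from 5262 to 5567 (306 nt) and from 9509 to 9813 (305 nt). The longest stretch, which ends at 5074, is followed by the window at 5101 to 5150, among the 10 fullest of the contig. Whether reads from the empty stretches could be placed on chrRibo by the authors' alignment was not tested.

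The alignments were spread unevenly over 1000 nt sections of the plus strand, with the same sparse and full stretches in all groups. Positions 1 to 5000 held 84 to 182 alignments per section over all libraries, whereas positions 5001 to 12000 held 296 to 1160. Positions 10001 to 11000 were the fullest section over all libraries, with 20.02% ± 1.76 (SD, n = 3) of chrRibo alignments in Upf1 untreated, 20.6% ± 0.881 (n = 2) in Upf1 cycloheximide, 21.7% ± 3.81 (n = 3) in IgG untreated and 22.4% ± 1.86 (n = 2) in IgG cycloheximide. The groups overlapped there, and the section had nearly the same share in every group.

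Positions 9001 to 10000 varied most between libraries. The section held 14.7% ± 9.13 (SD, n = 3) in Upf1 untreated, 25.2% ± 0.0723 (n = 2) in Upf1 cycloheximide, 19.2% ± 9.44 (n = 3) in IgG untreated and 29.3% ± 3.67 (n = 2) in IgG cycloheximide. The 34 nt libraries held 10.1% and 8.72% (Upf1 untreated, A1 then I) and 12.2% (IgG untreated I), while the 38 nt libraries of untreated cells held 25.2% (Upf1 untreated A2), 15.4% (IgG untreated A1) and 29.9% (IgG untreated A2). The cycloheximide libraries held 25.2% and 25.3% (Upf1) and 31.9% and 26.7% (IgG). Among 38 nt libraries, both untreated A2 libraries were near these values. IgG untreated A1, which had the most chrRibo alignments of the 38 nt libraries (589), was well below them. Treatment, read length and depth cannot be told apart in the 34 nt libraries.

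**Figure D2:**
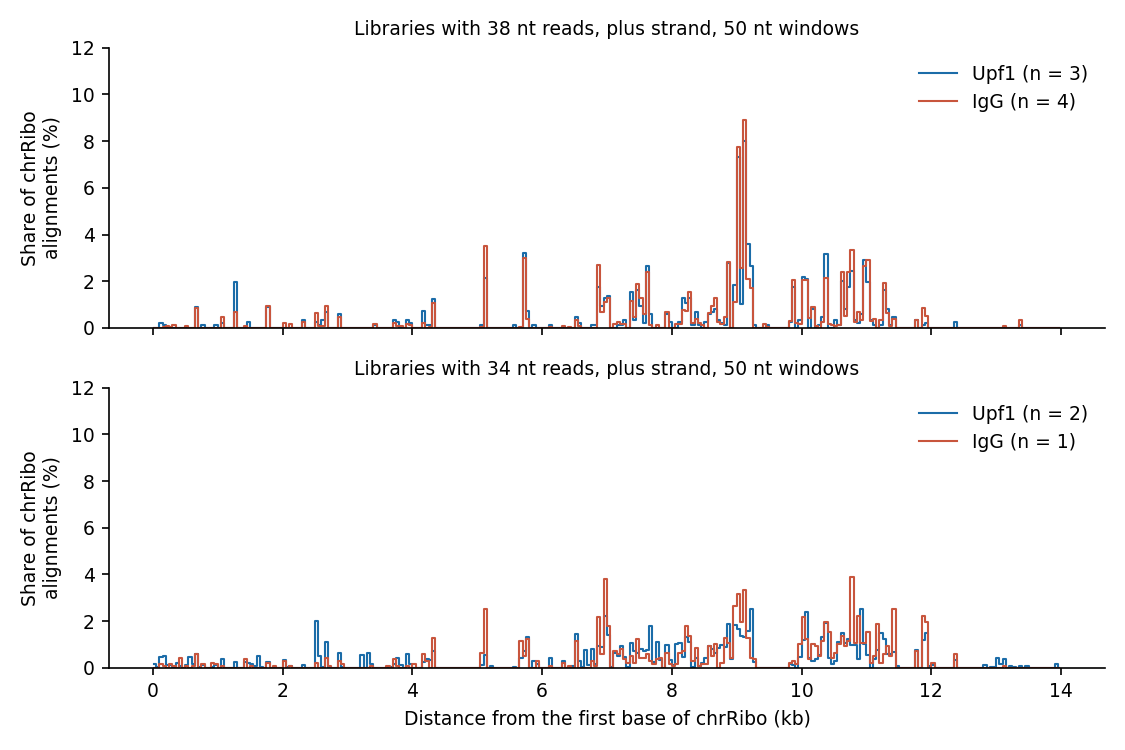
Mean share of chrRibo alignments (vertical axis, %) in each 50 nt window of the plus strand against the distance from the first base of the contig (kb), Upf1 in blue and IgG in red, with 38 nt libraries above and 34 nt libraries below. The peaks of both antibodies stand at the same places, and the windows at 9001 to 9050 and 9101 to 9150 hold 5.09% to 9.85% and 4.41% to 13.3% in the 38 nt libraries and at most 3.17% and 3.32% in the 34 nt libraries.

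A few windows held much of the total. The 26 fullest windows were needed to reach 50% of chrRibo alignments, and the 10 fullest held 25.5%. In a single library, its own 10 fullest windows held between 20.9% (Upf1 untreated A1) and 57.0% (IgG cycloheximide A1). Alignments were found in all 10 libraries in 29 windows, and 66 windows were covered in 1 library only. A tie at 101 alignments set the limit of the 10 fullest: the window at 6851 to 6900 was taken, and those at 10001 to 10050 and 10051 to 10100 were not.

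The fullest window spanned 9101 to 9150 and held 239 alignments. It took 1.52%, 8.39% and 1.11% of chrRibo alignments in Upf1 untreated A1, A2 and I, 7.93% and 7.69% in Upf1 cycloheximide A1 and A2, 4.41%, 9.85% and 3.32% in IgG untreated (same order), and 13.3% and 8.0% in the treated IgG libraries. The 34 nt libraries, which also had the most chrRibo alignments, were the lowest 3, and the antibodies overlapped. As a rate per 100000 alignments, the window held 17.4, 122 and 7.85 in Upf1 untreated, 72.3 and 61.4 in Upf1 cycloheximide, 252, 314 and 96.5 in IgG untreated and 249 and 152 in IgG cycloheximide, so only Upf1 untreated A2 exceeded the lowest IgG library.

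The next fullest window, at 9001 to 9050 with 235 alignments, had the same pattern. Its share of chrRibo was 0.792% to 3.17% in the 34 nt libraries and 5.09% to 9.85% in the 38 nt libraries. The neighbours at 9151 to 9200 (106 alignments) and 8951 to 9000 (106 alignments) were also among the 10 fullest. The 200 nt from 9001 to 9200, a stretch chosen after the values were seen, held 19.98% ± 0.175 (SD, n = 3) of chrRibo alignments in Upf1 and 21.3% ± 5.56 (n = 4) in IgG with 38 nt reads, against 7.31% and 4.44% in Upf1 and 9.74% in IgG with 34 nt reads. Per 100000 alignments, the stretch held 31.4 to 289 in the Upf1 libraries and 283 to 798 in the IgG libraries, and the antibodies overlapped. Outside it they did not overlap in total, since the rest of chrRibo held 637 to 1169 in the Upf1 libraries and 1386 to 4933 in the IgG libraries.

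The other windows of the 10 fullest differed less between read lengths. The window at 10751 to 10800 (128 alignments) held 0.951% to 2.68% of chrRibo in the Upf1 libraries and 1.53% to 5.93% in the IgG libraries, and the antibodies overlapped. The window at 6951 to 7000 (118 alignments) was highest in the untreated I libraries, at 2.85% for Upf1 and 3.82% for IgG, and lowest in IgG cycloheximide A2 (0.533%). The window at 10351 to 10400 (117 alignments) was among the more even, at 1.78% to 4.03% over all libraries. That at 8851 to 8900 (111 alignments) ranged from 1.08% to 4.17%, with no order by antibody or treatment.

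**Figure D3:**
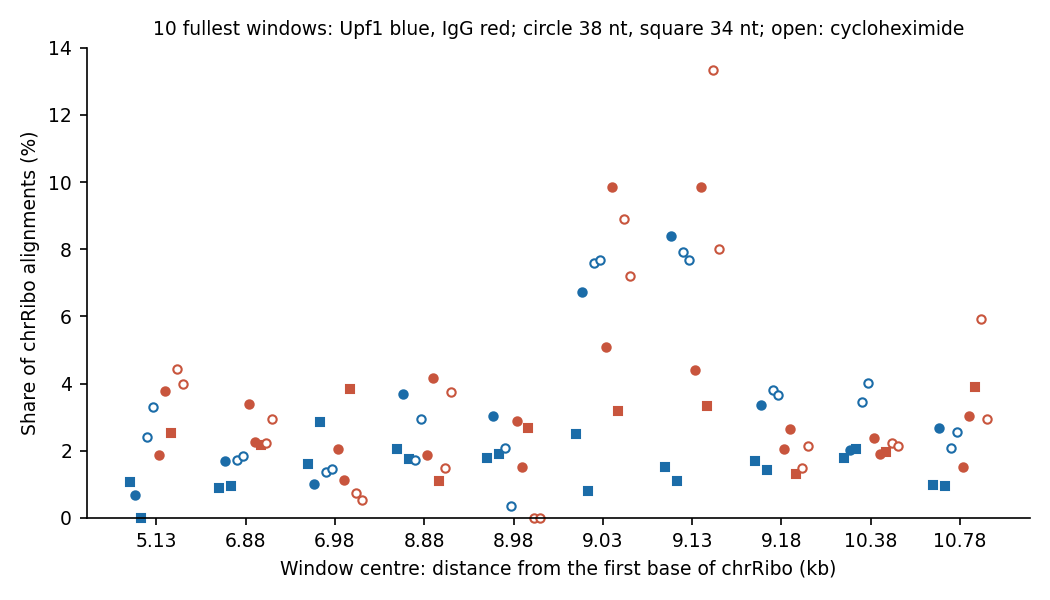
Share of each library's chrRibo alignments (vertical axis, %) in the 10 fullest windows, in their order along the contig (window centre in kb), Upf1 in blue and IgG in red, circles for 38 nt and squares for 34 nt reads, open symbols for cycloheximide. The windows centred near 9.03 and 9.13 kb reach 9.85% and 13.3%, with the 34 nt squares at their foot.

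The pile-ups had sharp ends. The 5′ end used most was position 6878, with 32 distinct alignments in 8 libraries, of which 29 were in IgG libraries. Positions 6877 and 6878 together began 43 alignments in IgG (1.56% of its chrRibo alignments) and 7 in Upf1 (0.268%), and neither Upf1 library with 34 nt reads had any. Of these 50 alignments, 37 were shorter than the longest read of their library. Each start and end counted once, so a library could hold only a single full-length alignment at a given end position. Most of the shorter ones follow from that and do not bear on how sharp the end is.

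At the 3′ side, positions 9132 to 9135 ended 174 alignments, found in all 10 libraries, and 156 of them were shorter than the longest read. Positions 9023 to 9026 ended 127 alignments, again in all 10 libraries, of which 95 were shorter. These edges lie inside the 2 fullest windows. In the 38 nt libraries the first edge took 5.94% and the second 4.27% of chrRibo alignments, and in the 34 nt libraries 1.34% and 1.02%. Upf1 and IgG both used the edges, with 69 and 105 alignments at the first and 53 and 74 at the second. The limit of a single full-length alignment per library and end position holds here too, so most of the shorter alignments follow from the counting.

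Alignments on chrRibo were more often of full length than those elsewhere in 6 of the 7 libraries with 38 nt reads. In these 6 libraries, 18.5% to 34.7% of chrRibo alignments were shorter than 30 nt, against 31.6% to 53.0% elsewhere. IgG untreated A1 went the other way, with 53.5% of full length on chrRibo against 72.1% elsewhere, and had few short alignments in either place (7.98% and 10.1%). In the 34 nt libraries the chrRibo share was 13.6%, 15.5% and 15.1% (Upf1 untreated A1 and I, IgG untreated I) against 15.1%, 12.2% and 12.0% elsewhere. Full-length alignments made up 77.8%, 77.5% and 72.4% on chrRibo against 76.2%, 82.6% and 83.2% elsewhere, so they were less frequent on chrRibo in both I libraries.

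The profiles of the 38 nt libraries resembled each other, whichever antibody was used. Over the 175 covered windows, Pearson's r between Upf1 untreated A2 and IgG untreated A2 was 0.92, whereas Upf1 untreated A2 had r of 0.51 and 0.39 with A1 and I of its own group. Among the 21 pairs of 38 nt libraries, r ranged from 0.65 to 0.95 with a median of 0.87, and among the 21 pairs of unlike read length from 0.20 to 0.76 with a median of 0.54. The 3 pairs of 34 nt libraries had r of 0.53 to 0.62, inside the range of the pairs of unlike length. The highest r of a 34 nt library, 0.76, was that of IgG untreated I with IgG untreated A1, which has 38 nt reads. The median was 0.86 for 38 nt pairs of unlike antibody and 0.87 for those of like antibody. These values are descriptions across windows, which share reads, base composition and libraries. Depth on chrRibo, which went with read length, was not accounted for.

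The likeness of the 38 nt libraries went together with shared molecules and shared positions. Libraries of this length had 31.5% to 77.0% of the smaller library's chrRibo positions in common, and pairs of unlike read length had 0.340% to 14.1%, where a read of another full length cannot have the same start and end. Without the molecules found in more than 1 library, the median r of the 38 nt pairs was 0.38 (range 0.14 to 0.58), from 19 to 426 alignments per library, and that of pairs of unlike length was 0.33. In sections of 1000 nt, which smooth over the exact ends, r was 0.82 to 0.99 between 38 nt libraries and 0.65 to 0.95 between unlike lengths.

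**Figure D4:**
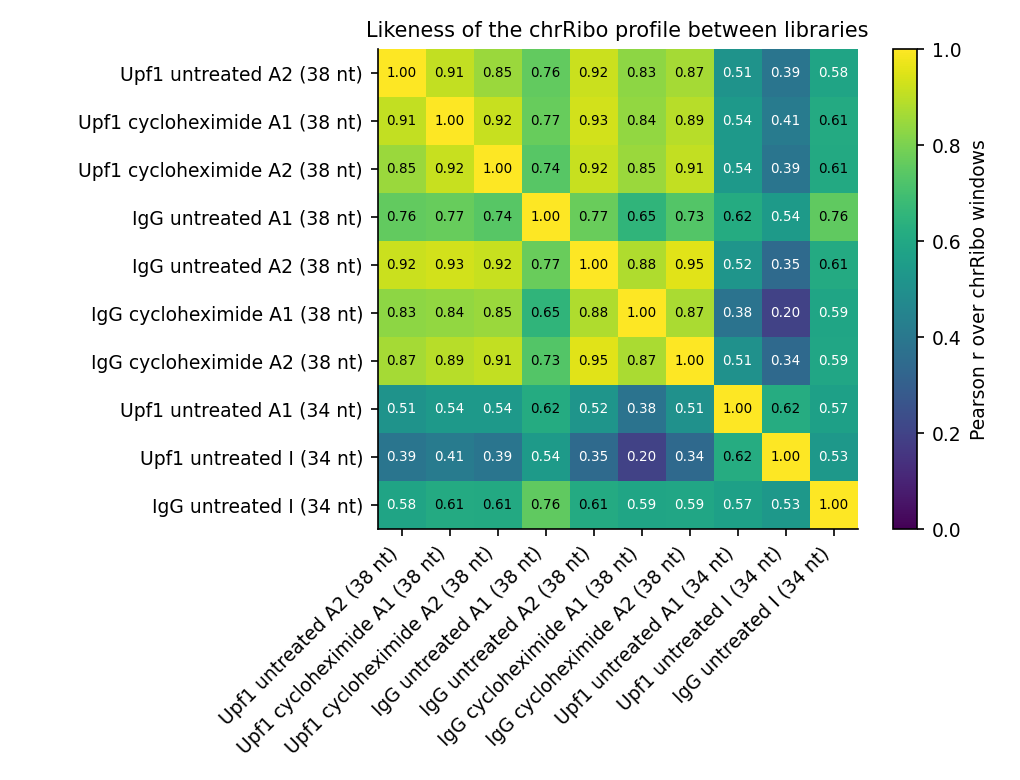
Pearson's r between libraries over the 175 covered plus-strand windows of the first 14000 positions, with the 38 nt libraries first and the 34 nt libraries last on both axes. The 38 nt block holds values from 0.65 to 0.95 whichever the antibody, and pairs of unlike read length hold 0.20 to 0.76.

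Windows were then tested between groups. Of all contigs, 1269 windows had at least 10 alignments over all libraries and were present in at least 3, and 104 of these were on chrRibo (8.20%), all on the plus strand. A window present in few groups passed only through the group where it was full, so the 104 do not stand for all 227 covered windows. The fits used limma-voom with TMM scaling (trimmed mean of M values) over all 1269 windows, with Benjamini-Hochberg adjustment over all of them and a threshold of 0.05.

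For Upf1 against IgG with treatment as a covariate, none of the 104 windows passed in limma-voom, either higher (0% of all windows tested) or lower (0%), and limma with a trended prior called none either. At an unadjusted p under 0.05, 8 chrRibo windows were lower (0.867% of all windows tested, 11 in number) and 1 was higher (2.68%). The median log2 ratio of Upf1 to IgG was -0.32 on chrRibo and 0.24 over all windows. Scaled to library totals the medians were -1.51 and -1.01, so the median of chrRibo lay below that of all windows by 0.56 with TMM and 0.50 with totals. With totals, 58 chrRibo windows (55.8%) were lower at an unadjusted limma-voom p under 0.05 (20.9% of all windows tested) and 0 higher (0%). None passed after adjustment. The scalings differ because TMM factors ran from 0.354 (Upf1 untreated I) to 2.54 (IgG untreated A1).

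By the raw shares, every Upf1 library lay below every IgG library in 14 of the 104 windows, or 13.5% (1.18% of all windows tested, 15 in number), and above in none (0.0788%). The smallest p belonged to the window at 5101 to 5150. Per 100000 alignments, it held 12.3, 9.78 and 0 in Upf1 untreated A1, A2 and I, 22.0 and 26.3 in Upf1 cycloheximide, 107, 121 and 73.4 in IgG untreated and 83.2 and 76.1 in IgG cycloheximide. The antibodies did not overlap there. Its log2 ratio was -2.02 ± 0.59 (SE; limma-voom adjusted p = 0.273).

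The window at 9101 to 9150, described above, had the next lowest p among lower windows, with a log2 ratio of -1.23 ± 0.43 (SE; limma-voom adjusted p = 0.685). Without the molecules found in more than 1 library the sign turned, to 0.95 (adjusted p = 0.961). The window at 6851 to 6900, which holds the 5′ end at 6878, also stood apart by antibody. It held 10.2, 24.5 and 6.73 per 100000 alignments in Upf1 untreated, 15.7 and 14.6 in Upf1 cycloheximide, 194, 72.5 and 62.9 in IgG untreated and 41.6 and 55.8 in IgG cycloheximide. Its log2 ratio was -1.42 ± 0.56 (SE; limma-voom adjusted p = 0.769).

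In the other direction, the window at 7651 to 7700 had the lowest p. It held 28.7, 0 and 7.85 per 100000 in Upf1 untreated A1, A2 and I, 9.44 and 5.84 in Upf1 cycloheximide, and 9.71, 0, 8.39, 0 and 5.07 in the IgG libraries in the same order. The antibodies overlapped, and the log2 ratio was 1.44 ± 0.72 (SE; limma-voom adjusted p = 0.999). The window at 8701 to 8750, with 21 alignments, followed at 1.31 ± 0.73 with the same adjusted p, and its sign turned to -0.17 when scaled to library totals.

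**Figure D5:**
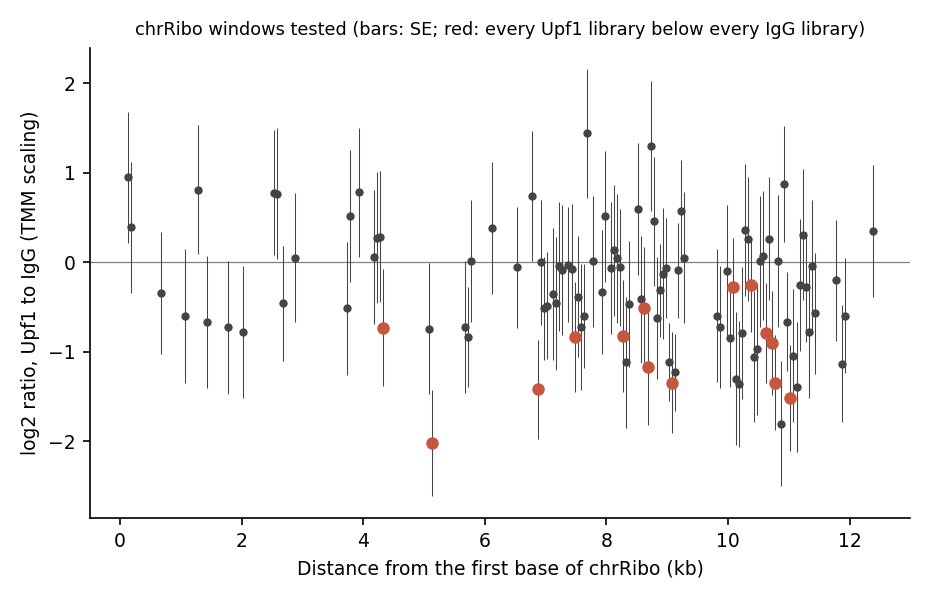
Fitted log2 ratio of Upf1 to IgG (limma-voom, TMM scaling, bars for SE) of the 104 chrRibo windows tested against the distance from the first base of the contig (kb). Red marks the 14 windows where every Upf1 library lay below every IgG library, and the lowest ratio is -2.02 at the window centred near 5.13 kb.

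As shares of the contig's own alignments, which take out the difference in total chrRibo, none of the 104 windows passed in limma-voom, higher (0% of all windows tested) or lower (0%), nor in limma with a trended prior. At an unadjusted p under 0.05, 2 were higher (0.158% of all windows tested, these 2 alone) and 3 lower (12.1%). The median log2 ratio on chrRibo was 0.08, with 55 windows above 0 and 49 below. Every Upf1 library lay below every IgG library in 2 windows (0.236% of all windows tested), those at 6851 to 6900 and 9051 to 9100, and above in none (0.0788%).

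The window at 6851 to 6900 held 0.892%, 1.68% and 0.951% of chrRibo in Upf1 untreated, 1.72% and 1.83% in Upf1 cycloheximide, 3.40%, 2.27% and 2.16% in IgG untreated and 2.22% and 2.93% in IgG cycloheximide. Its own-contig log2 ratio was -0.99 ± 0.45 (SE; limma-voom adjusted p = 0.377). The lowest p among lower windows was again that of 5101 to 5150 (-1.65 ± 0.63 SE, limma-voom adjusted p = 0.377), followed by 10851 to 10900 (-1.39 ± 0.63 SE, the same adjusted p). Those of 7651 to 7700 (1.77 ± 0.71 SE) and 8701 to 8750 (1.64 ± 0.78 SE) were the lowest among higher windows, at the same adjusted p.

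For cycloheximide against untreated in Upf1, 1 of the 104 windows fell (0.552% of all windows tested) and none rose (1.97%) in limma-voom with TMM scaling. At an unadjusted p under 0.05, 13 were lower (11.9% of all windows tested) and 1 was higher (7.88%). The median log2 ratio was -0.89 on chrRibo and -0.79 over all windows, and without overlap of groups 15 chrRibo windows, or 14.4%, were lower (15.5% of all windows tested) and 7, or 6.73%, higher (13.2%). Neither share exceeded that of all windows. Limma with a trended prior called none of the 104 in either direction.

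The window that fell lies at 10901 to 10950. It held 33.8, 14.7 and 14.6 per 100000 alignments in Upf1 untreated A1, A2 and I and 0 and 5.84 in Upf1 cycloheximide A1 and A2, so the groups did not overlap. The log2 ratio was -3.15 ± 0.94 (SE; limma-voom adjusted p = 0.0471). With 49 and 2 alignments in the pooled groups, the untreated rate was 7.80 times the cycloheximide rate, with an exact 95% interval of 2.05 to 66.2 that covers counting error only. In IgG the same window held 77.7, 0 and 31.5 per 100000 in untreated A1, A2 and I and 0 in both cycloheximide libraries. The fall was thus not particular to Upf1. The call was lost in 17 of 20 alternatives, among them scaling to library totals (adjusted p = 0.387) and the 38 nt libraries alone (log2 ratio -1.68, adjusted p = 0.526), with adjusted p from 0.0038 to 0.861 over all of them. It was also lost without Upf1 untreated A1, either Upf1 cycloheximide library, IgG untreated A1 or I, or either IgG cycloheximide library. Without Upf1 untreated A2, 12 of 102 chrRibo windows passed lower (8.23% of the 1082 windows tested there) and 3 higher (7.12%).

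The lowest p-values among higher windows belonged to 5101 to 5150 (log2 ratio 2.08 ± 0.94 SE, limma-voom adjusted p = 0.205) and 9851 to 9900 (1.80 ± 0.99 SE, adjusted p = 0.287). The latter held 1.02, 19.6 and 1.12 per 100000 in Upf1 untreated A1, A2 and I and 12.6 and 20.5 in Upf1 cycloheximide. It was low in the 34 nt libraries and overlapped between treatments. As shares of the contig, no chrRibo window passed in either direction in limma-voom (higher 0.236%, lower 0% of all windows tested) or in limma with a trended prior, and 4 in each direction had an unadjusted p under 0.05 (higher 8.59%, lower 4.33% of all windows tested). Without Upf1 untreated A2, 2 chrRibo windows passed higher (5.45% of all windows tested there). The own-contig ratios with the lowest p were 2.75 ± 0.94 (SE) at 5101 to 5150 and 1.84 ± 0.70 at 9101 to 9150 on the higher side, the latter being -0.10 in the 38 nt libraries alone. On the lower side they were -2.43 ± 0.97 at 10901 to 10950 and -2.12 ± 0.92 at 7551 to 7600, the latter being 0.62 with alignments placed by their 5′ end.

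For cycloheximide against untreated in IgG, 2 of the 104 windows fell in limma-voom with TMM scaling (0.158% of all windows tested, which is these 2 windows alone) and none rose (0%). At an unadjusted p under 0.05, 15 were lower (2.29% of all windows tested) and 1 was higher (6.46%). Limma with a trended prior called 1 lower (0.0788% of all windows tested) and 0 higher (0%). The median log2 ratio was -1.003 on chrRibo and -0.22 over all windows. Without overlap of groups, 21 chrRibo windows, or 20.2%, were lower (2.52% of all windows tested) and 1 was higher (12.4%), the window at 9851 to 9900. As shares of the contig, no chrRibo window passed in limma-voom, higher (0% of all windows tested) or lower (0%). The median log2 ratio on chrRibo was then 0.15, with 61 windows above 0 and 43 below. On that scale 14 chrRibo windows, or 13.5%, were lower without overlap (1.97% of all windows tested) and 7, or 6.73%, higher (12.7%).

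The first window that fell, at 8951 to 9000, held 165, 48.4 and 77.6 per 100000 alignments in IgG untreated A1, A2 and I and 0 in both IgG cycloheximide libraries. The log2 ratio was -4.68 ± 0.94 (SE; limma-voom adjusted p = 0.000865). Pooled over libraries, IgG untreated held 58 alignments and IgG cycloheximide 0. Against a floor of 3 alignments over the cycloheximide group, the pooled untreated level was 7.86-fold higher. That value takes no account of the spread between libraries. The window borders that at 9001 to 9050, and alignments there span the border. That from 8987 to 9024, of the pile that ends at 9023 to 9026, had its midpoint in the later window. The 34 nt alignment from 8982 to 9015, seen in Upf1 untreated A1, ends before that pile and had its midpoint in the earlier window.

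Taking the 2 windows together, 8951 to 9050 held 456, 363 and 170 per 100000 in IgG untreated and 166 and 137 in IgG cycloheximide, and as a share of chrRibo 7.98%, 11.4% and 5.84% against 8.89% and 7.20%. The combined share overlapped between treatments. With alignments placed by their 5′ end, the window's log2 ratio was -0.74 (adjusted p = 0.771), and with 38 nt libraries alone it was -4.23 (adjusted p = 0.0326). Without the molecules shared between libraries it was -3.32 (adjusted p = 0.2), and scaled to library totals -4.42 (adjusted p = 0.0597). Over 20 alternatives its adjusted p ranged from 3.82e-09 to 0.792, and the call was lost in 7.

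The other window that fell, at 11851 to 11900, held 175, 12.1 and 65.0 per 100000 in IgG untreated A1, A2 and I and 0 in both IgG cycloheximide libraries. The log2 ratio was -4.15 ± 0.97 (SE; limma-voom adjusted p = 0.0123). The pooled untreated level was 6.77-fold higher than the floor, again with no account of the spread between libraries. IgG untreated A2, with 1 alignment there, lay near the cycloheximide libraries, and the 2 others carried the difference. It was lost in 11 of 20 alternatives, including library totals (adjusted p = 0.203) and 38 nt libraries alone (adjusted p = 0.119), with adjusted p from 2.53e-06 to 0.953. Without Upf1 untreated A1 or IgG untreated A1 this window no longer passed. In Upf1 the same window held 9.22, 0 and 11.2 in untreated cells and 0 and 2.92 with cycloheximide. Without IgG untreated I, IgG cycloheximide A1 or IgG cycloheximide A2, neither window of this comparison passed, while 9 chrRibo windows passed lower without IgG untreated A2 (1.68% of all windows tested there) and 9 without Upf1 untreated A2 (1.11%).

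Among higher windows the lowest p-values were those of 9851 to 9900 and 1751 to 1800. The former held 0, 48.4 and 8.39 per 100000 in IgG untreated and 69.3 and 55.8 in IgG cycloheximide, without overlap, with a log2 ratio of 2.15 ± 0.96 (SE; limma-voom adjusted p = 0.413). It was lowest in the 34 nt library and in untreated A1. The latter had a log2 ratio of 0.79 ± 1.07 (SE; limma-voom adjusted p = 0.911).

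The response to cycloheximide was compared between the antibodies by an interaction term. None of the 104 windows passed in limma-voom, higher (0% of all windows tested) or lower (0%), nor in limma with a trended prior. At an unadjusted p under 0.05, 3 chrRibo windows were higher (1.26% of all windows tested) and 0 lower (1.81%). The lowest p-values were those of 8951 to 9000 (3.01 ± 1.34 SE, limma-voom adjusted p = 0.948) and 11401 to 11450 (3.18 ± 1.46 SE) on the higher side. On the lower side they were those of 8051 to 8100 (-2.06 ± 1.52 SE) and 7201 to 7250 (-1.99 ± 1.50 SE), all at the same adjusted p. The windows that fell with cycloheximide in IgG or in Upf1 were therefore not shown to respond differently between the antibodies.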

How the data were processed

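The deposited files of the CLIP-seq libraries list alignments on mm9 and on chrRibo, 1 per line. TopHat 1.4.0, Cufflinks 1.3.0 and Bowtie 0.12.6 are named in the submitters' processing notes, and which made the alignments is not given in the sources used here. The deposited score column was 255 throughout and measured nothing, so only the deposited positions and names were used. Per the labels' protocols, 2 random adapter nucleotides served to filter PCR copies. Distinct alignments were tallied per library in windows of 50 nt. These tallies are no count table, so limma-voom (limma 3.58.1, R 4.3.3) was used with TMM trims of 30% and 5%. The fit was also run on data simulated from a common profile. Those data held no shared molecules and no differences in read length, so that run does not bear on these features. For own-contig shares, log2 values with an offset of 0.5 and voom weights were fitted. Treatment was a covariate for Upf1 against IgG, and other contrasts came from a model of the 4 groups. Windows named are the 10 fullest and, per comparison and direction, the 5 lowest p past the threshold or, with none, the 2 lowest p; any other is named for a value seen. Members and lists were chosen with earlier results of these data known. The 13 mRNA-seq and ribosome footprinting samples were not analysed here.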

Additional observations from a re-analysis of the deposited data

How the results depend on the processing

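Over all alternatives run, the counts of chrRibo windows called for Upf1 against IgG, on both scales, and for the interaction stayed at 0. For cycloheximide in Upf1, the 1 window called lower became 0 with library totals, trended limma, no filter, at least 30 alignments, every line, distinct molecules, unshared molecules, windows shifted by 25 nt, windows of 100 nt and 38 nt libraries; leaving out a library gave 0 to 12 lower and 0 to 3 higher, and on the own-contig scale 0 to 2 higher. For cycloheximide in IgG, the 2 became 0 with library totals, every line and unshared molecules, 1 with trended limma, 5′ ends and 38 nt libraries, and 4 with windows of 100 nt; leaving out a library gave 0 to 9. The causes were not tested. The main fits did not pair libraries by name (A1, A2, I). Deviations from group means correlated at -0.11, 0.41 and 0.38 between same-named untreated Upf1 and IgG libraries. Between same-named untreated and cycloheximide libraries they correlated at 0.24 (A1) and 0.43 (A2) in IgG and at 0.01 and 0.03 in Upf1. With 2 cycloheximide libraries per antibody, the deviations of A1 and A2 mirror each other, so their values are not separate evidence. Libraries of unlike name correlated at -0.46 to 0.28. Whether names mark pairs is therefore not settled. With the name as a replicate block in limma-voom, the count was 1 in Upf1 and 1 in IgG. In Upf1 the window at 10901 to 10950 was lost (adjusted p = 0.0769) and another passed. The Upf1 minus IgG difference in chrRibo share, -2.11 percentage points, was -12.7 with every line and -5.07 with distinct molecules, and -2.43 to -1.46 leaving out a library. Counts of every line may not be like for like between the antibodies, as said above. In IgG, cycloheximide minus untreated was -2.05, -15.1 with every line and -5.77 with distinct molecules, and -2.57 to -1.16 leaving out a library. In Upf1 it was -0.25, and -0.45 to -0.07 leaving out a library. The Upf1 groups lay further apart in other alternatives. Mean shares were 1.35% treated and 1.81% untreated with every line, and 1.43% and 1.93% with distinct molecules. With 38 nt reads they were 0.855% treated and 1.46% in the lone untreated library. Signs turned for 4 values of windows not called: 8701 to 8750 for antibody with library totals (-0.17), 9101 to 9150 for antibody with unshared molecules (0.95), and, for cycloheximide in Upf1 on the own-contig scale, 7551 to 7600 with 5′ ends (0.62) and 9101 to 9150 in 38 nt libraries (-0.10). With 135 to 1386 chrRibo alignments per library, small differences of single windows were not detectable. Alternatives for the chrRibo share were chosen after seeing the data.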
